A study of Rattus norvegicus with 12 samples.

Results

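Airway mucins and secretory proteins were followed here in the cells of rat bronchoalveolar lavage fluid (BALF), the fluid washed out of the airways and alveoli. The group holds 8 of the 14218 genes with a probe set of their own, namely Muc5b, Muc5ac, Muc1, Bpifb1, Wfdc2, Scgb1a1, Slpi and Pigr. They were chosen by name, with earlier results of these data known. A gene was read from the probe set of the array that names it alone, and where several do from the one of highest mean. Each of the 8 genes had exactly 1 such probe set, out of 31099 on the array, so no other probe set could serve as a check. All 8 probe sets passed the filter on dim signal and were among the 25692 tested.

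The animals were male Sprague-Dawley rats 8 weeks old, in 4 groups, with 3 arrays in each. CTL rats were naïve controls kept in normoxia and given saline by the tail vein. LPS rats received lipopolysaccharide, a bacterial outer membrane component, at 0.5 mg/kg by the tail vein, in normoxia. HPO rats spent 6 h in a decompression chamber at 405.35 mmHg, which matches an altitude of 5000 m or 11.2% oxygen. COMB rats were given the same dose of LPS and then the same hypobaric hypoxia. An array held RNA pooled from several rats of a group, 3 rats in each pool by the labels except for 2 COMB pools of 2 rats, so the spread given below is a spread between pools and not between animals. The pools were those of rats 1, 3 and 4, rats 5, 6 and 7 and rats 8, 9 and 10 in CTL, of rats 2, 3 and 6, rats 5, 7 and 11 and rats 8, 9 and 10 in LPS, of rats 7, 8 and 9, rats 2, 4 and 11 and rats 3, 5 and 12 in HPO, and of rats 2 and 3, rats 10 and 11 and rats 12, 13 and 14 in COMB. Values are listed below in that order. Some rat numbers recur between groups, and the labels do not say how the rats were numbered.

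Mucus on the airway surface is a gel of large glycoproteins secreted by goblet, club and gland cells. Muc5b and Muc5ac are the gel-forming mucins of the airways, while Muc1 is a mucin anchored in the cell membrane. Around the gel, secretory cells release small defence proteins, among them the secretoglobin Scgb1a1 of club cells, the BPI fold protein Bpifb1, the whey acidic protein domain proteins Wfdc2 and Slpi, and the ectodomain of Pigr, the receptor that carries polymeric IgA across the epithelium. BALF cells are mainly alveolar macrophages, so transcripts of these genes in BALF are read beside markers of the epithelium below.

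Promoters were taken from RefSeq on the rat build GRCr8, from 250 bases before to 50 bases after the annotated start, and 5 of the 8 genes had one by symbol (Muc1, Bpifb1, Wfdc2, Scgb1a1 and Pigr). Muc5b, Muc5ac and Slpi had no entry. The promoters below are those of Pigr and Bpifb1, which rose together in COMB, and of Scgb1a1, which rose there by a smaller amount. Each is written 5′ to 3′ on the strand of the gene. In Pigr (chr13:44850932-44851231, plus strand) the capitals mark ACGTG, the core of the hypoxia response element, found on both strands and overlapping itself. The whole stretch, CACGTG, reads the same on both strands and is also the sequence of the E-box, a motif that was not searched. In Bpifb1 (chr3:163132901-163133200, plus strand) and Scgb1a1 (chr1:215409637-215409936, minus strand) they mark TATAAA, the TATA box.
Pigr: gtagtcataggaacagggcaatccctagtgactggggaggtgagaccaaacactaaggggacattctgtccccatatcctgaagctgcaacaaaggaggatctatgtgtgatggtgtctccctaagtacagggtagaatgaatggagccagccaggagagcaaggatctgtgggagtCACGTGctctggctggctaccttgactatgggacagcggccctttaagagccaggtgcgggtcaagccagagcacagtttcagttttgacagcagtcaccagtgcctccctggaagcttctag
Bpifb1: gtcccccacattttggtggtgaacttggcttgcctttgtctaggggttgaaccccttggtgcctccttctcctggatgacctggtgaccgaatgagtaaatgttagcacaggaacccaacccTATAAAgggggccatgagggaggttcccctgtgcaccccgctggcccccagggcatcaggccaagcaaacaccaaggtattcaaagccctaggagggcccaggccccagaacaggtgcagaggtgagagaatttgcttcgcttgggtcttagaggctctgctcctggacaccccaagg
Scgb1a1: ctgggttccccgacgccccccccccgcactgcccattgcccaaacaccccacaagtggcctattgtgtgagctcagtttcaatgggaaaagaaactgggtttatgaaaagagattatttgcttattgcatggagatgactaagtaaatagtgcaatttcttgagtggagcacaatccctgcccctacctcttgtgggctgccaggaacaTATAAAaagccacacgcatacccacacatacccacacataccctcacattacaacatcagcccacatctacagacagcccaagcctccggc

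A total of 4 motifs were searched on both strands in these windows and in all 33469 promoters of the table. ACGTG lay in 1 of the 5 promoters, that of Pigr, at -73 to -68 relative to the start, and in 19.3% of all promoters. TATAAA lay in 3 of the 5, at -41 to -36 in Scgb1a1, at -33 to -28 in Muc1 and farther upstream, at -128 to -123, in Bpifb1, and in 14.2% of all promoters. The forkhead motif TGTTTNC was found in Bpifb1 only, at -64 to -58 on the reverse strand, against 21.1% of all promoters. TGANTCA (AP-1) was in none of the 5 windows and in 7.33% of all promoters. These matches are letters in a window of 300 bases, and binding was not measured.

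The arrays were alike in scale, with medians of 32.7 to 35.6 intensity units, 20th percentiles of 10.1 to 11.3 and highest values of 13290 to 17527. Alveolar macrophage markers were present in every pool, with a summed intensity over 12 genes that ran from 27261 to 29638 in the CTL pools, 29203 to 31173 for LPS, 27812 to 28363 for HPO and 24392 to 27790 for COMB. The sum does not describe each gene. Of the 12, 2 were higher and 3 lower in COMB than in CTL at a limma adjusted p under 0.05. A CTL pool stood apart from the rest of its group in markers of other leukocytes. It held rats 5, 6 and 7, and the neutrophil protein gene S100a9 was at 2011 there, against 20.6 and 60.2 in the other CTL pools. Values of Slpi, and list counts that this pool moved by over 1.5 times, are also given without it where they are described.

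Muc5b was higher in each exposed group than in CTL and highest in COMB. The CTL pools read 111, 219 and 242, the LPS pools 642, 353 and 426, the HPO pools 772, 468 and 677, and the COMB pools 2828, 2430 and 1543. The 4 groups came in the order CTL, LPS, HPO and COMB, with LPS and HPO overlapping and no overlap of CTL or COMB with another group. On the log2(intensity + 1) scale the difference of COMB from CTL was 3.60 ± 0.327 (SE, n = 3 pools in each group, limma adjusted p = 4.2e-05), a fold of 12.1.

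Muc5ac was dim in all pools and differed less. The CTL pools read 26.1, 26.7 and 29.0, the LPS pools 29.8, 22.4 and 27.7, the HPO pools 26.7, 28.3 and 22.7, and the COMB pools 48.8, 52.3 and 31.4. The 3 COMB pools lay above all others, but even there the probe set ranked at most at the 57.7th percentile of its array. The log2 difference of COMB from CTL was 0.65 ± 0.174 (limma adjusted p = 0.0216). The call was lost, at an adjusted p of 0.0554 to 0.0802, when CTL rats 1, 3 and 4, CTL rats 5, 6 and 7, COMB rats 2 and 3 or COMB rats 10 and 11 were left out.

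Muc1, the membrane mucin, followed the course of Muc5b. Its CTL pools read 40, 43.6 and 44.7, those of LPS 99.3, 72.9 and 84.1, those of HPO 106, 96.6 and 171, and those of COMB 543, 234 and 232. LPS and HPO overlapped only between 96.6 and 99.3, and no pool of CTL reached any exposed pool. The log2 difference of COMB from CTL was 2.83 ± 0.297 (limma adjusted p = 9.11e-05).

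Bpifb1 and Wfdc2 are secreted proteins of the airway surface. For Bpifb1 the CTL pools read 91.8, 97.6 and 76.3, LPS 293, 173 and 238, HPO 246, 182 and 309, and COMB 1111, 957 and 456. LPS and HPO could hardly be told apart (means of 235 ± 60.3 and 245 ± 63.6, SD, n = 3). For Wfdc2 the CTL pools read 399, 435 and 387, LPS 913, 542 and 842, HPO 1144, 992 and 1197, and COMB 2920, 2490 and 1720. Wfdc2 alone among the 8 genes had 4 groups with no overlap at all, rising in the order CTL, LPS, HPO and COMB. The log2 differences of COMB from CTL were 3.14 ± 0.307 for Bpifb1 (limma adjusted p = 6.16e-05) and 2.51 ± 0.209 for Wfdc2 (adjusted p = 2.82e-05).

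Pigr had the largest log2 difference of COMB from CTL among the 8 genes. The CTL pools read 109, 196 and 307, the LPS pools 747, 298 and 467, the HPO pools 658, 820 and 974, and the COMB pools 4176, 2602 and 1554. The lowest LPS pool lay below the highest CTL pool, while HPO and COMB were clear of CTL. The log2 difference of COMB from CTL was 3.77 ± 0.427 (limma adjusted p = 0.000144), a fold of 13.6 between means of the logs.

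Scgb1a1, the main secreted protein of club cells, was bright in every pool. The CTL pools read 5499, 6353 and 4107, the LPS pools 8478, 8512 and 8755, the HPO pools 8093, 9407 and 7078, and the COMB pools 10726, 9676 and 9489. All 9 exposed pools lay above the 3 CTL pools, and the 3 exposed groups lay close together, although the COMB pools did not overlap the others. The log2 difference of COMB from CTL was 0.93 ± 0.15 (limma adjusted p = 0.00126), a fold of 1.90. The probe set ranked at or above the 99.5th percentile in every array, and whether its signal was near saturation was not tested.

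Slpi, an inhibitor of neutrophil elastase made by secretory cells and also by leukocytes, did not separate the groups in the same way. The CTL pools read 36.5, 1459 and 81.4, the LPS pools 206, 286 and 240, the HPO pools 296, 207 and 101, and the COMB pools 1044, 2468 and 1494. The CTL pool at 1459, that of rats 5, 6 and 7, fell among the COMB pools, and the other CTL pools were below every exposed pool. With that pool the log2 difference of COMB from CTL was 3.25 ± 0.994 (limma adjusted p = 0.0392) and without it 4.82 (adjusted p = 0.000141). With it kept, the call was lost when any of 8 other pools was left out (adjusted p = 0.0534 to 0.152), and held without HPO rats 7, 8 and 9, HPO rats 3, 5 and 12, or COMB rats 2 and 3.

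**Figure D1:**
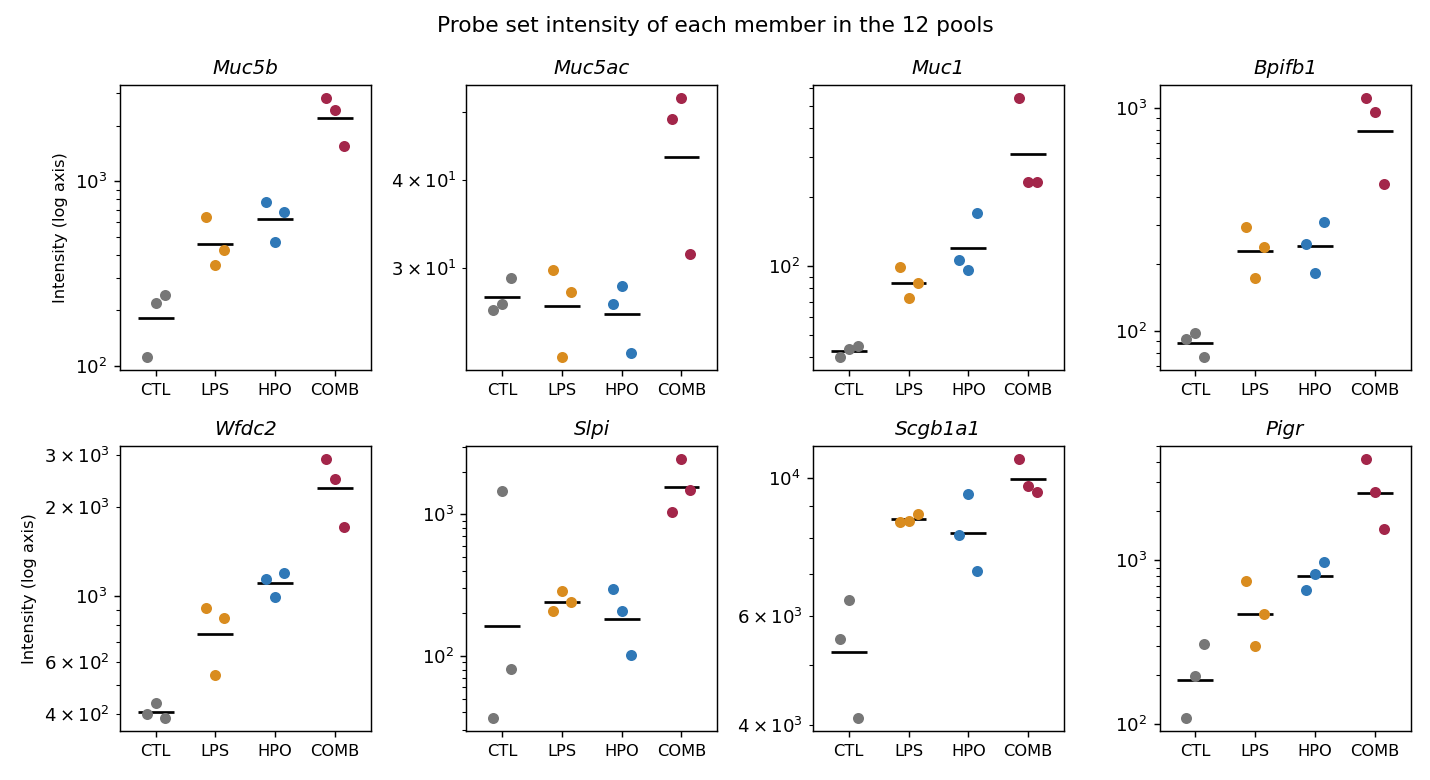
Intensity of the 8 genes (log axis, deposited units) in the 12 pools by group, with points for pools and a bar for the mean of the log values. COMB lies highest for all 8 genes, LPS and HPO lie between CTL and COMB for Muc5b, Muc1, Bpifb1, Wfdc2, Scgb1a1 and Pigr, and 1 CTL pool of Slpi, at 1459, lies among the COMB pools.

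The combined exposure was compared with the control in all 8 genes. They were chosen with earlier results known, so shares of all probe sets given here and below are a description and not a test. All 8 were called higher in COMB than in CTL at an adjusted p under 0.05, against 8.84% of all probe sets tested, and none was lower, against 10.2%. For 7 of the 8, every COMB pool was above every CTL pool, which held for 14.9% of all probe sets, and Slpi was the exception. The median log2 difference over the 8 genes was 2.99, and over all 12853 genes tested it was -0.03. RNA was taken from mixed cells, so more cells of a type and more transcript in each cell cannot be told apart in these values or in any that follow.

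LPS alone was set against CTL. Bpifb1 (log2 difference 1.37 ± 0.307, limma adjusted p = 0.0437) and Scgb1a1 (0.71 ± 0.15, adjusted p = 0.0365) rose, which is 2 of the 8 genes against 0.868% of probe sets called higher. None of the 8 fell, against 1.18% called lower. Every LPS pool was above every CTL pool for 5 of the 8 (Muc5b, Muc1, Bpifb1, Wfdc2 and Scgb1a1), against 11.3% of probe sets. Among the genes that did not pass, Wfdc2 was at 0.88 (adjusted p = 0.055), Muc5b at 1.34 (0.0601), Muc1 at 0.97 (0.128), Pigr at 1.32 (0.15), Slpi at 0.56 (0.869) and Muc5ac at -0.04 (0.95). The call of Bpifb1 was lost when any of the 6 CTL and LPS pools was left out (adjusted p = 0.0617 to 0.176). That of Scgb1a1 was lost when any of them was left out except CTL rats 5, 6 and 7. With those left out, Slpi passed at 2.13 (adjusted p = 0.0484). COMB pools enter this comparison only through the shared spread. With COMB rats 2 and 3 left out Muc5b (0.046), Muc1 (0.0216) and Wfdc2 (0.0353) passed too, for 5 of the 8. Over all probe sets 338 were called higher in that fit, against 223 with all arrays. HPO pools enter in the same way, and the call of Bpifb1 was lost without HPO rats 7, 8 and 9 (0.069) or HPO rats 2, 4 and 11 (0.0522), and that of Scgb1a1 without HPO rats 7, 8 and 9 (0.0576).

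Hypoxia alone was set against CTL in the same fit. Wfdc2 rose (log2 difference 1.44 ± 0.209, limma adjusted p = 0.0477), the only call among the 8 genes, and 0.035% of all probe sets were called higher. No probe set was called lower (0%). Every HPO pool was above every CTL pool for 6 of the 8 (all but Muc5ac and Slpi), against 9.03% of probe sets. Pigr was at 2.10 (adjusted p = 0.107), Muc5b at 1.79 (0.0925), Muc1 at 1.47 (0.105), Bpifb1 at 1.43 (0.129), Scgb1a1 at 0.64 (0.163), Slpi at 0.16 (0.985) and Muc5ac at -0.07 (0.952). For Muc5b, Muc1, Bpifb1, Wfdc2 and Pigr the difference of HPO from CTL was no smaller than that of LPS from CTL. However, the exposures were not tested against each other, and both use the same CTL pools. The mean of 13 epithelial markers differed from CTL by 0.88 in HPO and by 0.24 in LPS. Relative to those markers the order turned for Muc5b, Muc1, Bpifb1 and Wfdc2, as given below. Leaving out any CTL or HPO pool ended the call of Wfdc2 (adjusted p = 0.0797 to 0.227). With COMB rats 2 and 3 left out, Muc1 (0.0117), Muc5b (0.0397) and Pigr (0.0424) passed beside Wfdc2, for 4 of the 8. That fit called 105 of all probe sets higher, against 9 with all arrays. Wfdc2 itself was lost without COMB rats 10 and 11 (0.085), LPS rats 2, 3 and 6 (0.053) or LPS rats 8, 9 and 10 (0.071).

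**Figure D2:**
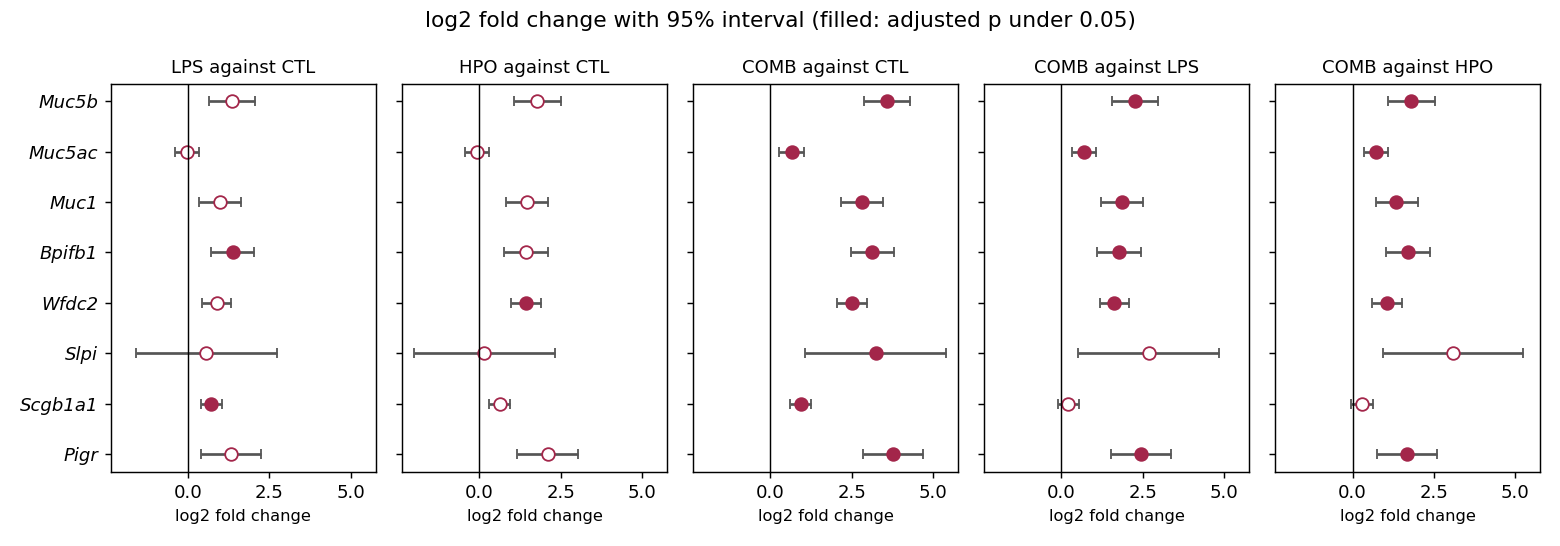
log2 fold change of the 8 genes (x axis) in 5 comparisons, with 95% intervals from limma; filled points have an adjusted p under 0.05. All 8 points are filled for COMB against CTL, 2 for LPS against CTL, 1 for HPO against CTL and 6 in each comparison of COMB with a single exposure.

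COMB was then compared with each exposure alone. Against LPS, 6 of the 8 were higher in COMB (6.64% of probe sets called higher), with Pigr at 2.45 ± 0.427 (limma adjusted p = 0.00431), Muc5b at 2.26 ± 0.327 (adjusted p = 0.00184), Muc1 at 1.85, Bpifb1 at 1.77, Wfdc2 at 1.63 and Muc5ac at 0.69. Against HPO, the same 6 were higher (6.83% of probe sets), with Muc5b at 1.81 ± 0.327 (adjusted p = 0.00344), Bpifb1 at 1.71, Pigr at 1.67 ± 0.427 (adjusted p = 0.0207), Muc1 at 1.35, Wfdc2 at 1.07 and Muc5ac at 0.72. Every COMB pool was above every pool of the single exposure for 8 of 8 genes in both comparisons, against 15.4% of probe sets for LPS and 11% for HPO. Scgb1a1 was at 0.21 (95% interval -0.11 to 0.54) against LPS and 0.29 (-0.04 to 0.62) against HPO, and neither passed (adjusted p = 0.379 and 0.231). Slpi was at 2.69 against LPS (adjusted p = 0.102) and 3.09 against HPO (0.0556), and with CTL rats 5, 6 and 7 left out of the fit both were called (0.00314 and 0.000865). Pigr lost its call against HPO when HPO rats 7, 8 and 9, HPO rats 2, 4 and 11, COMB rats 2 and 3 or COMB rats 10 and 11 were left out (adjusted p = 0.052 to 0.0714). Muc5ac lost its call against LPS without LPS rats 5, 7 and 11, LPS rats 8, 9 and 10, COMB rats 2 and 3 or COMB rats 10 and 11 (0.0613 to 0.0943), and against HPO without HPO rats 3, 5 and 12 or COMB rats 10 and 11 (0.0514 and 0.0587).

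Whether the exposures combined by more than their separate effects was read on the log2 and the linear scale. The interaction, the difference of COMB from LPS minus that of HPO from CTL on the log2 scale, was called for 0 of the 8 genes, against 0.136% of probe sets in either direction. It was 0.47 (95% interval -0.54 to 1.48) for Muc5b, 0.38 (-0.54 to 1.29) for Muc1, 0.34 (-0.61 to 1.29) for Bpifb1, 0.19 (-0.45 to 0.84) for Wfdc2 and 0.34 (-0.97 to 1.66) for Pigr. Muc5ac had the lowest p (0.76, limma adjusted p = 0.225) and was the only gene with an unadjusted p under 0.05. Without COMB rats 12, 13 and 14 it was 0.98 (limma adjusted p = 0.0389), in a fit that called 182 probe sets higher for the interaction. With all arrays 35 were called in either direction. For Scgb1a1 the estimate was below 0 (-0.42, interval -0.88 to 0.04), and saturation of its bright probe set was not tested. Slpi had the largest estimate with the widest interval (2.53, interval -0.54 to 5.59, adjusted p = 0.504), and without CTL rats 5, 6 and 7 it was 0.96 (adjusted p = 0.644), with a range of 0.96 to 3.60 when any array was left out.

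On the linear scale, COMB exceeded the sum of the separate increases in several genes. Adding the LPS and HPO increases to the CTL mean gave 922 for Muc5b, 167 for Muc1, 391 for Bpifb1, 1469 for Wfdc2 and 1117 for Pigr, and the COMB means were 2267 ± 658, 336 ± 179, 841 ± 343, 2377 ± 608 and 2777 ± 1320 (SD, n = 3). Every COMB pool of these 5 genes was above its sum, by as little as 232 against 167 for Muc1 and 456 against 391 for Bpifb1. For Scgb1a1 the COMB mean of 9964 ± 667 lay below its sum of 11454, and saturation of this bright probe set was not tested. These linear sums were not tested.

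Most markers of the epithelium also rose in COMB. In LPS and in HPO against CTL, 0 of the 13 epithelial markers were called, and 2 of 8 ciliated cell markers were called higher in LPS. Of 13 epithelial markers tested, 11 rose in COMB against CTL and 1 fell, with a median log2 difference of 1.90. Prom1, a membrane glycoprotein of epithelial cells, was at 3.39 (limma adjusted p = 0.000134) and Epcam, an epithelial adhesion protein, at 2.82 (adjusted p = 6.04e-05), and the keratin Krt18 (2.78) and the claudin Cldn7 (2.44) rose as well. The keratin Krt7 fell by 1.36. The summed intensity of the 14 genes with a probe set ran from 1652 to 1804 for CTL, 1627 to 2389 for LPS, 2010 to 3354 for HPO and 3307 to 6677 for COMB, and 1 of the 14 was below the 20th percentile on every array. All 8 ciliated cell markers tested rose in COMB (median 2.12), led by the ciliary proteins Tekt1 (3.09) and Dynlrb2 (2.67), with a summed intensity of 657 to 768 for CTL, 825 to 1134 for LPS, 870 to 968 for HPO and 1956 to 3148 for COMB. Of 11 alveolar epithelium markers, 6 rose and 0 fell, with the surfactant protein Sftpd at 2.48. The part of a larger share of epithelial cells in the values of the 8 genes was not tested.

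The level of each gene was therefore also set against the epithelium on its own array. The mean log2 value of the 13 epithelial markers was 6.33 ± 0.186 for CTL, 6.57 ± 0.276 for LPS, 7.21 ± 0.304 for HPO and 8.07 ± 0.474 for COMB (SD, n = 3). Subtracting it from the log2 value of each gene left Muc5b 1.86 and Pigr 2.03 higher in COMB than in CTL, Bpifb1 1.40, Muc1 1.09 and Wfdc2 0.77, with no overlap between the pools of the 2 groups. On this relative scale Pigr stood at 0.65, 1.13 and 1.89 for the CTL pools, 2.73, 1.95 and 2.25 for LPS, 2.31, 2.66 and 2.37 for HPO, and 3.44, 3.38 and 2.95 for COMB. Scgb1a1 went the other way, 0.81 lower relative to the markers in COMB than in CTL, again with no overlap (6.02 ± 0.347 in CTL, 5.21 ± 0.381 in COMB). Its probe set was among the brightest of every array, and whether saturation lowered this value was not tested. Muc5ac, read from a dim probe set, was 1.09 lower, and the groups overlapped for Slpi (1.51 higher, and 3.00 higher without CTL rats 5, 6 and 7). In LPS, where the mean of the markers differed from CTL by 0.24, Muc5b was 1.10, Bpifb1 1.13, Pigr 1.09, Muc1 0.73, Wfdc2 0.64 and Scgb1a1 0.47 higher than in CTL relative to it. In HPO the same values were 0.91 for Muc5b, 0.55 for Bpifb1, 1.22 for Pigr, 0.59 for Muc1, 0.56 for Wfdc2 and -0.24 for Scgb1a1. Single markers differed from CTL in LPS by -0.55 (Krt19) to 0.75 (Cldn7). Median differences of the ciliated and the alveolar epithelium markers were 0.78 and 0.65 in LPS, and 0.53 and 0.03 in HPO. The relative differences show unequal change within an array, depend on which markers are averaged and carry no test. In COMB against CTL the single markers ran from -1.36 (Krt7) to 3.39 (Prom1). Before subtraction, Muc5b (3.60) and Pigr (3.77) lay above that range, and Bpifb1, Muc1 and Wfdc2 lay within it.

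**Figure D3:**
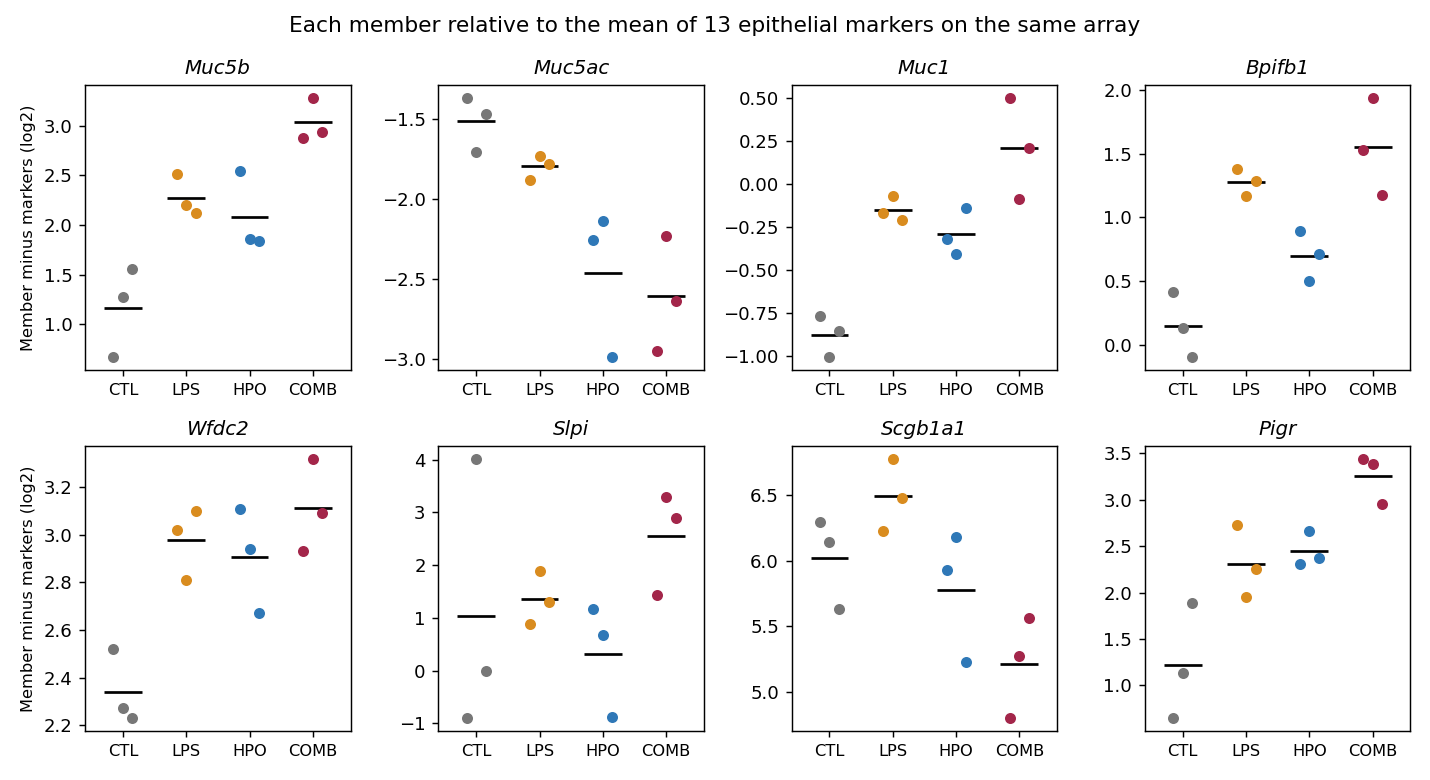
log2 value of each of the 8 genes minus the mean log2 value of 13 epithelial markers on the same array (y axis) in the 12 pools, with bars for group means. Muc5b, Muc1, Bpifb1, Wfdc2 and Pigr stand higher in COMB than in CTL, Scgb1a1 and Muc5ac stand lower, and the Slpi pools overlap.

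Slpi was read beside leukocyte markers. The CTL pools read 20.6, 2011 and 60.2 for S100a9, the LPS pools 513, 576 and 1099, the HPO pools 97.0, 31.5 and 75.9, and the COMB pools 3326, 4403 and 1820. The CTL pool with Slpi at 1459 was thus the CTL pool with S100a9 at 2011, and the decoy receptor Il1r2 (421 against 44.2 and 46.5) and the monocyte marker Ly6c (370 against 43.0 and 82.0) were also high in it. The neutrophil marker Csf3r differed less, at 202 there against 136 and 113. In COMB rats 2 and 3, with S100a9 at 3326, Csf3r was at 86.3. In CTL rats 5, 6 and 7 Epcam was at 84.2, against 64.9 and 81.1 in the other CTL pools. In the LPS pools, with S100a9 at 513 to 1099, Slpi was at 206 to 286. Of 8 neutrophil markers, 4 rose in COMB against CTL and 1 fell (median log2 difference 1.85), with summed intensities of 521 to 3409 for CTL, 1419 to 2144 for LPS, 357 to 543 for HPO and 3758 to 9606 for COMB. Of 6 monocyte markers, 3 rose and 1 fell, and of 11 T and NK cell markers, 2 rose and 0 fell. Without CTL rats 5, 6 and 7, 5 of the 8 neutrophil markers rose in COMB and 1 fell (median 2.30), and 8 of the 11 T and NK cell markers rose. In LPS, 2 neutrophil and 2 monocyte markers rose without that pool, and none with it. The part of leukocytes in the values of Slpi was not tested.

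**Figure D4:**
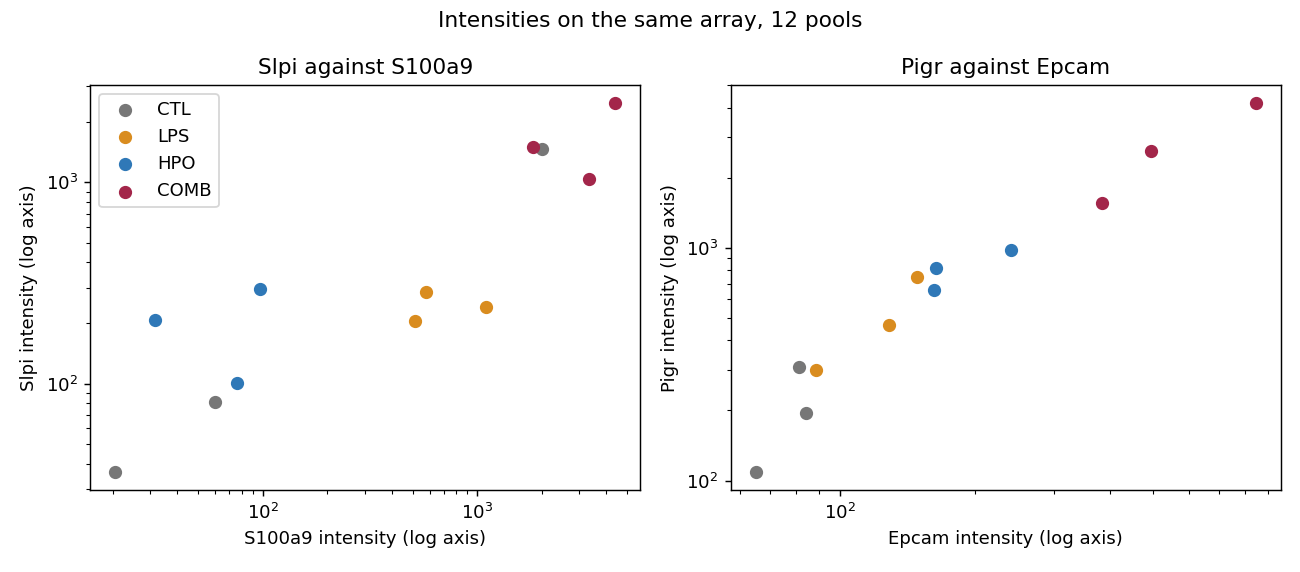
Slpi against the neutrophil gene S100a9 (left) and Pigr against the epithelial gene Epcam (right), in intensity on log axes, 1 point for each of the 12 pools. The CTL pool with S100a9 at 2011 lies with the COMB pools for Slpi, whereas the CTL pools lie together at the low end for Pigr and Epcam.

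Across the 12 arrays Muc5b, Muc1, Bpifb1, Wfdc2 and Pigr moved closely together, with Pearson r of 0.94 to 0.98 over their 10 pairs. These points share the group differences, and with the group means taken out the r was 0.53 to 0.92, highest for Bpifb1 with Wfdc2. Slpi correlated with the 5 genes at 0.56 to 0.69, and at -0.23 to 0.30 without the group means. Over the 11 arrays without CTL rats 5, 6 and 7 these were 0.80 to 0.91 and -0.66 to 0.18. Scgb1a1 did so at 0.73 to 0.80, and at -0.23 to 0.13 without them. Muc5ac stood between, at 0.68 to 0.75 and 0.21 to 0.71. These are descriptions over 12 arrays with no test.

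**Figure D5:**
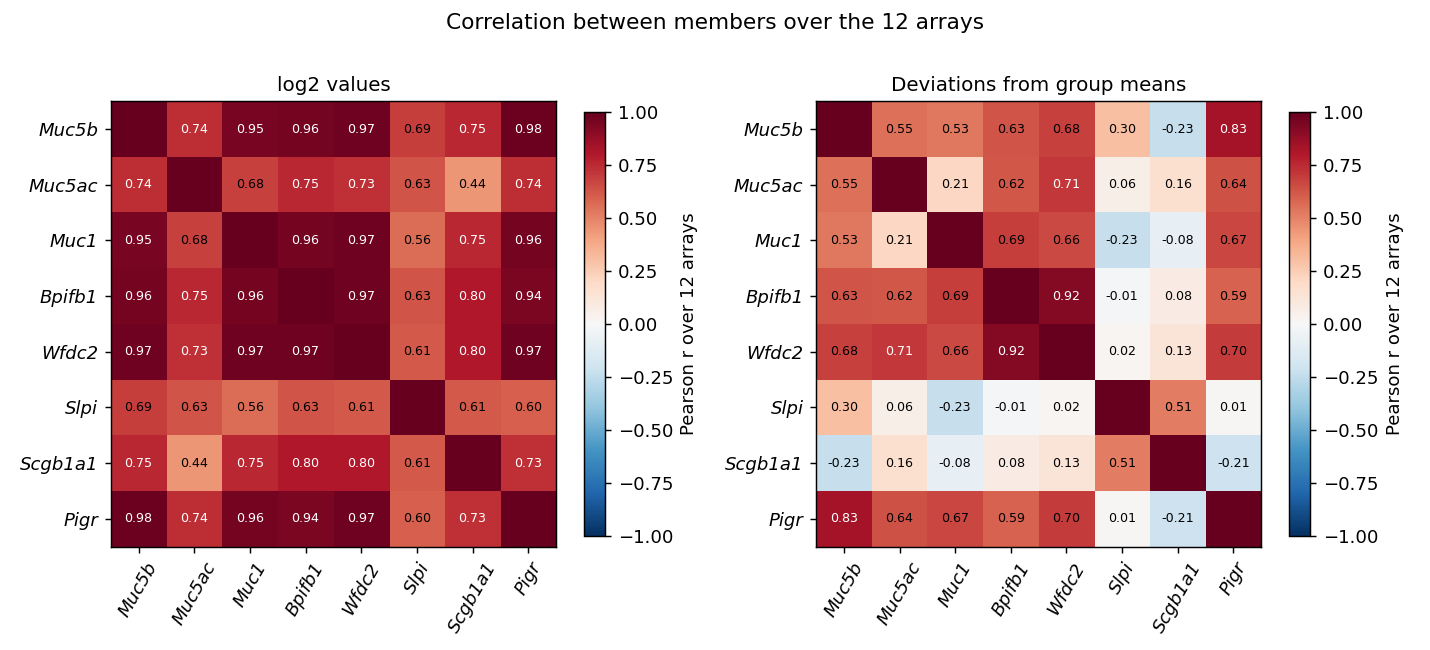
Pearson r between the 8 genes over 12 arrays, for log2 values (left) and for deviations from the group means (right). Muc5b, Muc1, Bpifb1, Wfdc2 and Pigr correlate at 0.94 to 0.98 on the left, while Slpi and Scgb1a1 fall to -0.23 to 0.30 with these 5 on the right.

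The genes most like each of the 8 over the 12 arrays, other members left out, were listed by r of log2 values. For Muc5b they were Cldn7 (r = 0.987), Pof1b (0.985) and Foxj1 (0.980), and for Pigr Cldn7 (0.985), the water channel Aqp4 (0.984) and Pof1b (0.975). For Muc1 they were Epcam (0.983), Mal2 (0.982) and Nckap1 (0.981). For Bpifb1 they were Tspan12, Agr2 and Nckap1 (each 0.987), and for Wfdc2 Agr2 (0.984), Nckap1 (0.980) and Lypd2 (0.980). The nearest genes of Scgb1a1 were another secretoglobin, Scgb3a1 (0.965), with Gsta1 (0.942) and Chia (0.912). Those of Slpi were Plk2 (0.965), Ifitm1 (0.963) and Srgn (0.945), at 0.938 to 0.968 without CTL rats 5, 6 and 7, and those of Muc5ac were Rsph9 (0.951), an uncharacterised locus (0.949) and Ift70b (0.949).

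Genes that make and handle mucin did not move as a whole. Of 21 tested genes of mucin folding, glycosylation and secretion, 3 rose in COMB against CTL and 2 fell, with a median log2 difference of 0.04. Agr2, the disulfide isomerase needed for mucin folding, rose by 3.65 (limma adjusted p = 5.25e-05), from 124, 127 and 117 in the CTL pools to 2121, 2002 and 879 in COMB. The secreted Clca1, a protein of goblet cells, rose by 1.65 (adjusted p = 0.00507), while its relative Clca2 fell by 1.08 and the core glycosyltransferase C1galt1 fell by 0.90. Among 3 other mucins tested, 2 rose, the membrane mucin Muc4 by 2.65 (adjusted p = 0.00438) and the dim Muc13 by 0.32. Neither list had a call in LPS or in HPO. Without CTL rats 5, 6 and 7, 4 of the 21 genes fell in COMB and 1 fell in LPS.

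Transcription factors of airway secretory cells mostly rose in COMB, 7 of 11 tested against 2 that fell (median 0.57). Elf3, an epithelial ETS factor, was at 2.70 (limma adjusted p = 2.51e-05), Sox2, a factor of airway identity, at 2.70 (adjusted p = 4.89e-05), the goblet cell factor Spdef at 2.03 (adjusted p = 0.000191) and the forkhead factor Foxa2 at 1.35. None was called in LPS or HPO, where Spdef was at 0.30 and 0.62. Of 10 genes of ion and fluid transport, 5 rose in COMB and 0 fell, with the water channels Aqp4 at 4.07 and Aqp5 at 2.24, the chloride channel Ano1 at 1.45 and the sodium channel subunit Scnn1a at 1.07.

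Other secreted proteins of the airway lining were called in COMB and in LPS. Of 21 tested, 8 rose in COMB, 6 in LPS and 0 in HPO, with no gene lower, and the median log2 differences were 0.23, 0.08 and 0.08. Lcn2, which binds bacterial siderophores, was at 7.46 in COMB and 5.29 in LPS (limma adjusted p = 2.39e-08 and 1.34e-06), with an HPO value of 0.48. The complement component C3 was at 4.94 in COMB and 2.68 in LPS, ceruloplasmin (Cp) at 4.68 and 3.63, and the chitinase Chia at 3.41 and 2.33, all called in both. In HPO these 3 were at 1.80, 0.92 and 1.66, none called. Scgb3a1, the gene most like Scgb1a1, rose by 2.04 in COMB (adjusted p = 0.000266) and by 1.37 in LPS (adjusted p = 0.0221). In HPO it was at 1.53 and was not called (adjusted p = 0.0673).

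Pigr carries IgA, and the other genes of IgA and its transport were read from a list of 8 tested. In COMB 1 rose, the plasma cell chaperone Mzb1 at 1.45 (limma adjusted p = 0.0476), and 1 fell, the B cell cytokine Tnfsf13 at -0.36 (adjusted p = 0.0214). Without CTL rats 5, 6 and 7, 0 of the 8 rose and 1 fell. Jchain, which joins IgA into polymers, had means of 163 ± 165 for CTL, 60.4 ± 29.2 for LPS, 165 ± 68.2 for HPO and 382 ± 263 for COMB (SD, n = 3), and its difference of COMB from CTL did not pass (1.54, adjusted p = 0.152). Of 8 genes listed as neutrophil serine proteases and inhibitors beside Slpi, 4 could be tested. They were the serpins Serpinb1a and Serpina3n, the metalloproteinase inhibitor Timp1 and the elastase Cela1. No serine protease of neutrophils was among them. Timp1 (2.28 in COMB, 1.37 in LPS) and Serpinb1a (0.85 and 0.63) rose in both groups, and 0 were called in HPO. Without CTL rats 5, 6 and 7, 1 of the 4 was called in LPS. In these lists, as in the others, the members and the genes named were read from 1 probe set for each gene, and 147 of 196 listed genes could be tested.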

How the data were processed

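BALF cells of CTL, LPS, HPO and COMB rats were measured on Affymetrix Rat Genome 230 2.0 arrays, 12 arrays of pooled RNA in 4 groups of 3. The authors deposited an intensity for every probe set of every array, not on a log scale. Their methods name MAS 3.0, the Transcriptome Analysis Console, GeneSpring and R, and how values were summarised and normalised is not given in the sources used here, so a shift of all values by that step cannot be seen. Groups were taken from the labels. Probe sets were named from the platform annotation, with symbols updated by gene ID (20832 name 1 gene, 436 several and 9831 none), and 57 controls were left out.

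Intensities were used as log2(intensity + 1) and kept if above the 20th percentile of the array in at least 3 arrays. limma 3.58.1 in R 4.3.3 (lmFit, eBayes) was fitted to 4 group means over 12 arrays, with contrasts between groups and their interaction, and p-values were adjusted by Benjamini-Hochberg over 25692 probe sets at 0.05. All adjusted p-values are from this fit, all tests are two-sided, and comparisons with CTL share the CTL pools. The script was tested on simulated data. The number of arrays limits the precision. The 8 genes and the 14 gene lists were chosen with earlier results of these data known, so no list test was run. From each list the text names up to 4 genes with the largest called change in COMB against CTL. For each of the 8 genes the 3 most alike are named. Jchain, Krt7, Krt19 and the values in single pools of S100a9, Il1r2, Ly6c, Csf3r and Epcam were chosen after they were seen. Alternatives were another normalisation, filter, pseudocount, weighting and test, a replicate block, and leaving out each array. The level relative to epithelial markers under other settings, and list counts and Slpi correlations without CTL rats 5, 6 and 7, were added after seeing the data.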

Additional observations from a re-analysis of the deposited data

How the results depend on the processing

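In COMB against CTL, 8 members were called under quantile normalisation, median centring, both other filters, both other pseudocounts and array weights, 7 with trended and robust eBayes (without Slpi) and 6 in a fit of these groups alone (without Slpi and Muc5ac). The counts for the single exposures depended on the setting. In LPS against CTL, 2 calls became 1 without a filter, with a pseudocount of 16 and with trended and robust eBayes, 3 with quantile normalisation, 4 in a fit of these groups alone and 5 with array weights. In HPO against CTL, 1 call became 0 without a filter, with a pseudocount of 16 and with trended and robust eBayes, 3 in a fit of these groups alone and 6 with array weights. Array weights gave 1 call for the interaction in place of 0. Those weights ran from 0.226 (HPO rats 3, 5 and 12) to 6.38 (HPO rats 7, 8 and 9). Calls over all probe sets under these settings are not given here, so the member counts have no share beside them.

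The methods' t-test, run here unpaired, gave 5 members in LPS and 6 in HPO unadjusted, beside 4425 and 2225 of all probe sets. After Benjamini-Hochberg it gave 0 and 0 members, beside 1 and 0 of all probe sets. In COMB against CTL it then gave 1 member beside 544 probe sets, and in COMB against LPS 0 beside 14. Of the list genes, 9 were higher in COMB in place of 64. With a replicate block by shared rat numbers, 0 members were called in LPS and 0 in HPO; the deviations of pools in a block correlated at -0.16 to 0.17, so the numbers were not taken as pairing.

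Leaving out each array gave 6 to 8 calls in COMB against CTL, 0 to 5 in LPS, 0 to 4 in HPO, 5 to 7 against LPS, 4 to 7 against HPO, 0 to 1 for the interaction and 53 to 73 list genes. Over all probe sets the calls higher ran from 1507 to 2529 in COMB against CTL, 47 to 338 in LPS, 0 to 105 in HPO and 2 to 444 for the interaction. The differences relative to epithelial markers ranged from 1.61 to 2.05 (Muc5b), -1.28 to -0.92 (Muc5ac), 0.94 to 1.24 (Muc1), 1.21 to 1.59 (Bpifb1), 0.67 to 0.87 (Wfdc2), 0.54 to 3.00 (Slpi), -1.01 to -0.61 (Scgb1a1) and 1.74 to 2.37 (Pigr).

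Directions turned only in values that were not called and only when an array was left out. Slpi ranged from -0.51 to 2.13 in LPS and from -0.91 to 1.73 in HPO, lowest without CTL rats 1, 3 and 4 and highest without CTL rats 5, 6 and 7, and in HPO went to -0.34 without CTL rats 8, 9 and 10 and -0.18 without HPO rats 7, 8 and 9. Muc5ac ranged from -0.12 to 0.07 in LPS (0.00 without CTL rats 8, 9 and 10) and from -0.14 to 0.01 in HPO, and the interaction from -0.01 to 0.73 for Pigr, -0.04 to 0.41 for Wfdc2 and -0.03 to 0.63 for Muc1. No other probe set named a member, so that alternative gave no value. The cause of these changes was not tested.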
